A study of Homo sapiens with 10 samples.

Results

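Extended pluripotent stem cells of human origin (hEPS cells) were compared with and without crotonate, a short unsaturated fatty acid that cells turn into crotonyl-CoA, the donor for lysine crotonylation of histones and other proteins. The cells came from H9, an established human embryonic stem cell line, which carried a GFP reporter driven by LTR7, a repeat from which the retrovirus family HERVH is transcribed. They had been converted from the primed state in LCDM medium, which contains human LIF, CHIR99021, dimethindene maleate and minocycline, here with IWR-endo-1 and Y-27632, on mitotically inactivated mouse embryonic fibroblasts, and were separated from these feeders by adherence. The treated hEPS cells were grown for 12 days with 10 mM crotonate and the control hEPS cells without it, and both carried the wild-type genotype and the reporter. There are 2 samples per group in the labels but only 1 FPKM column per group in the deposited table, so that there is no replicate check, no SD and no test for any value given here, and each change is the difference between 2 values. FPKM is the number of fragments per kilobase of transcript, scaled to library size. Of 26731 genes in the hEPS table, 14161 had at least 1 FPKM in either column and make up the comparison. The change of a gene is the difference of log2(FPKM + 1), which understates the change of genes at low levels, and a gene was called higher or lower where this difference reached a fold of 2.

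Pluripotent stem cells keep a network of transcription factors around OCT4 (POU5F1), SOX2 and NANOG, and respond only weakly to interferon, since several genes of innate immunity are held low in them. Nodal and Activin signals act in these cells through SMAD2 and SMAD3 and switch on their own antagonists of the LEFTY and CER1 type, while WNT and FGF signals pattern the neural plate along its axis. As a check of the label, the pluripotency genes were read in both columns. POU5F1 stood at 461 and 261 FPKM in untreated and crotonate-treated hEPS cells, NANOG at 15.3 and 25.1 FPKM, LIN28A at 311 and 246 FPKM, L1TD1 at 114 and 89.6 FPKM and DPPA4 at 201 and 114 FPKM, and none of these was called. SOX2 fell from 234 to 63.8 FPKM. The markers of a pluripotent cell were therefore present in both columns.

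Of the 14161 genes, 1193 (8.42%) were called higher and 428 (3.02%) lower with crotonate. A fold of 4 was reached by 212 genes (1.5%) upward and 45 genes (0.318%) downward. The genes called higher had a median of 3.11 FPKM in untreated cells, those called lower a median of 11.3 FPKM, and all measured genes a median of 12.4 FPKM. Among the genes called higher, 338 were below 1 FPKM in untreated cells and 37 of them were listed at 0, and 180 reached 50 FPKM with crotonate. C1QL2, at 0.182 and 1.36 FPKM, lay just above the threshold and FTL, the ferritin light chain, at 908 and 1818 FPKM, just below it, and 522 genes had changes between 1.9-fold and 2.1-fold. The median change over all measured genes was -0.09. Genes with at least 100 FPKM in either column had a median of -0.30, and genes with 1 to 5 FPKM a median of 0.07. Transcripts of the mitochondrial genome took 12.0% of all FPKM in untreated and 18.1% in crotonate-treated cells. If the remaining genes were scaled to equal sums, every crotonate value would rise by 0.14 on the log2 scale. Of 1724 genes below 0.2 FPKM in both columns, 91.4% had values in the ratio of small whole numbers (12 or less, tolerance 0.05%) after a shared factor was removed, so that low values rest on few reads. This factor, the step of the crotonate column over that of the untreated column, was 1.32. It corresponds to a library size used for scaling of 0.758 with crotonate relative to untreated cells.

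**Figure D1:**
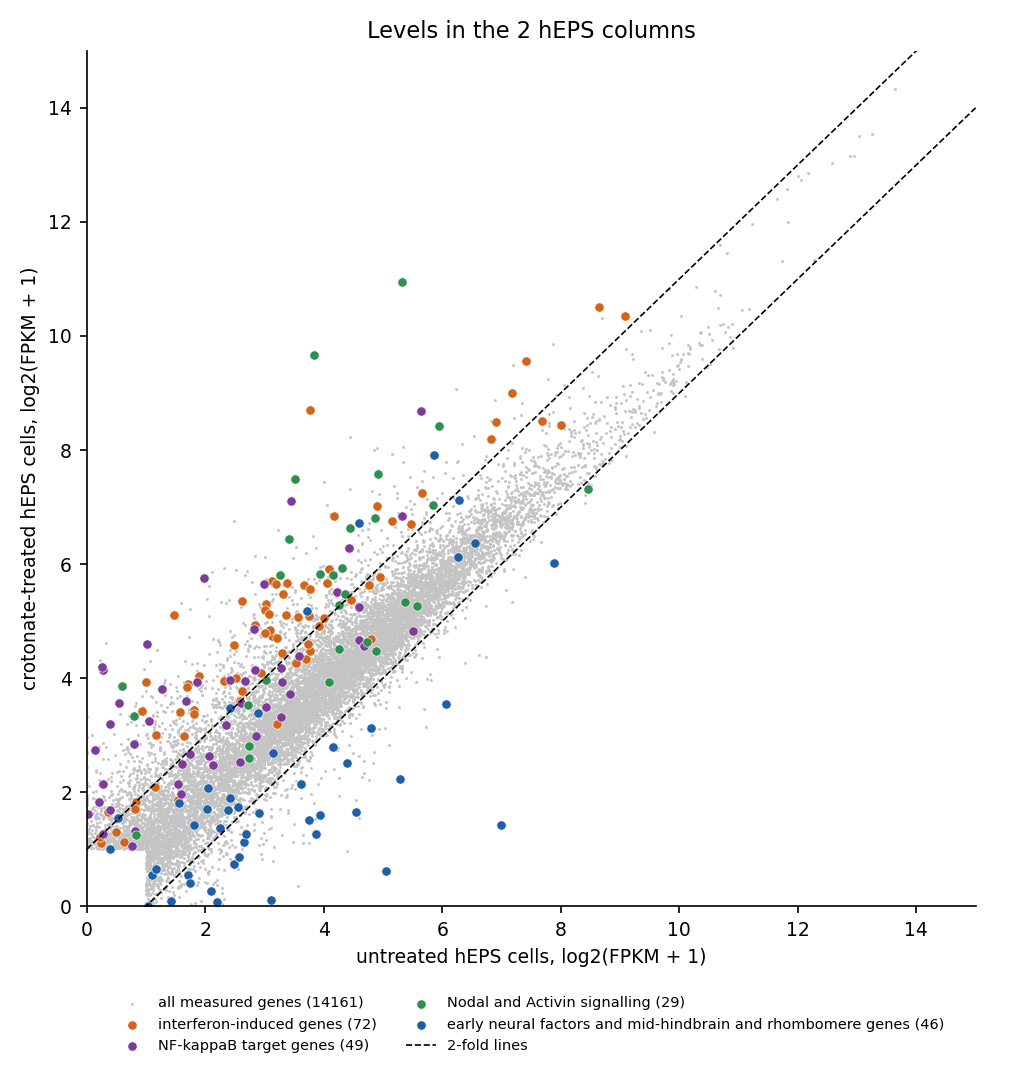
Level of each of the 14161 measured genes in untreated (x axis) and crotonate-treated (y axis) hEPS cells, both as log2(FPKM + 1), with dashed lines at a fold of 2 and 4 groups of genes in colour. Most genes lie between the lines, interferon-induced, NF-kappaB target and Nodal genes lie mainly above the upper line, and early neural and hindbrain genes mainly below the lower line.

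Genes listed only under a clone name are left out of this ranking and given further below. The largest rises were in LEFTY2 and CER1, secreted antagonists of Nodal. LEFTY2 (chr1:225936598-225941383, hg38, minus strand) rose from 13.3 to 810.1 FPKM, a log2 change of 5.83, and CER1 (chr9:14719724-14722733, minus strand) from 39 to 1962 FPKM. They were followed by the interferon-induced gene IFI27, which rose from 12.6 to 416 FPKM, by the fibrillar collagen gene COL5A2 (4.6 to 108 FPKM) and by TFF1, a secreted trefoil peptide of mucosal epithelium (0.259 to 23.4 FPKM). LEFTY1 rose from 10.5 to 179 FPKM, the gelatinase gene MMP9 from 0.196 to 17.4 FPKM, and EBI3, a cytokine subunit shared by interleukins, from 0.217 to 16.6 FPKM. NTS, the precursor of neurotensin, rose from 20.8 to 301 FPKM, and CFLAR, which encodes the caspase inhibitor cFLIP, from 2.93 to 52.9 FPKM. The largest falls were in HES3, a Hairy-type repressor known from the mouse neural plate and isthmus, which went from 126 to 1.67 FPKM, a log2 change of -5.57 (chr1:6244179-6245578, plus strand), and in OLIG3, a factor of the dorsal hindbrain and spinal cord (32.2 to 0.532 FPKM). They were followed by GDPD2, a phosphodiesterase gene (20.1 to 0.971 FPKM), the neuropeptide gene GALP (10.8 to 0.286 FPKM), C5orf38, the divergent neighbour of IRX2 (38.2 to 3.71 FPKM), the immediate early gene EGR4 (23.3 to 1.94 FPKM), FGF3 (7.62 to 0.0844 FPKM), WNT1 (22.2 to 2.16 FPKM), BTBD17 (22.2 to 2.63 FPKM) and RFX4, a regulator of dorsal brain patterning in the mouse (12.5 to 1.15 FPKM).

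Of the pathway lists, interferon-induced genes had the largest count of rises. Interferon-induced genes are switched on by a complex that contains STAT2 and IRF9 and binds a DNA motif called the interferon-stimulated response element, and NF-kappaB target genes by dimers of RELA, RELB, REL, NFKB1 and NFKB2 at their own motif. The RefSeq promoter windows, 250 bases before to 50 bases after the start of each gene on GRCh38.p14, were searched on both strands for GAAANNGAAA, a form of the interferon motif, and for GGGANNTTCC, a form of the NF-kappaB motif. The windows below are shown because they belong to members that were called higher and had a match. They are printed 5′ to 3′ along the gene, with the matched bases in capitals. The windows of IFI27 (chr14:94110486-94110785, plus strand), IFI44L (chr1:78620198-78620497, plus strand), SAMD9 (chr7:93117930-93118229, minus strand) and OAS3 (chr12:112938224-112938523, plus strand) hold the interferon motif.
IFI27: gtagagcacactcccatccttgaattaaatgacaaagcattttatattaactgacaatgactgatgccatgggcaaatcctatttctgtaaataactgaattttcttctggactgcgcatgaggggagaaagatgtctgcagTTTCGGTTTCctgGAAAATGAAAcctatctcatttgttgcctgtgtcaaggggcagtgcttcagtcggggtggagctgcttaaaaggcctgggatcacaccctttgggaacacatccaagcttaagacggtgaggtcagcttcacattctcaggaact
IFI44L: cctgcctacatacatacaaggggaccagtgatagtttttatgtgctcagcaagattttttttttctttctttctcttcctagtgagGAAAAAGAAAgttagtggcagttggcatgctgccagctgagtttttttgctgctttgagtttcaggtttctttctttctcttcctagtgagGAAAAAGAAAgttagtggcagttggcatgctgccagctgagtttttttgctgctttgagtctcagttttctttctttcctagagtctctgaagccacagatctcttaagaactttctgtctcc
SAMD9: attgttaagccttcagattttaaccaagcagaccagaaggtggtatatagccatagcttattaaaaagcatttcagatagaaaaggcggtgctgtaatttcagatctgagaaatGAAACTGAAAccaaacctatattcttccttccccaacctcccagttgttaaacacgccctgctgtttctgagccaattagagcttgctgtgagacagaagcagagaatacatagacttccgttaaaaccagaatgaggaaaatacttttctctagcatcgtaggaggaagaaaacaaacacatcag
OAS3: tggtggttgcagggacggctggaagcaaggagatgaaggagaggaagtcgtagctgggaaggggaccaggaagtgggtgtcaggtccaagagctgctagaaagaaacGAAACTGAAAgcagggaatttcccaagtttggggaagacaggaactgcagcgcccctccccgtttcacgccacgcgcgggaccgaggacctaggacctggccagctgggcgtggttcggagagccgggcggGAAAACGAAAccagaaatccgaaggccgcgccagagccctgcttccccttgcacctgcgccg
The windows of LTB (chr6:31582376-31582675, minus strand), IL32 (chr16:3065153-3065452, plus strand) and CXCL1 (chr4:73869143-73869442, plus strand) hold the NF-kappaB motif, and in CXCL1 the matches of both strands overlap.
LTB: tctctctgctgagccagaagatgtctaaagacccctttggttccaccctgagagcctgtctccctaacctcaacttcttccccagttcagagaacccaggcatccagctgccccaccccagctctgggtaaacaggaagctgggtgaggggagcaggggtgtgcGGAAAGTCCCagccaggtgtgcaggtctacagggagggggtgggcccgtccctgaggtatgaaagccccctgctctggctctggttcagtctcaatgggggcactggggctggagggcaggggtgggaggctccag
IL32: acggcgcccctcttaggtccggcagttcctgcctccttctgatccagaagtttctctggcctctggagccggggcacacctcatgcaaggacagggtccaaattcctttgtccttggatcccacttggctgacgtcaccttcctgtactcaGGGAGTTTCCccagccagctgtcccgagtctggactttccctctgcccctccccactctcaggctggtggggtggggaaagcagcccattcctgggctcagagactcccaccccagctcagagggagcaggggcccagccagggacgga
CXCL1: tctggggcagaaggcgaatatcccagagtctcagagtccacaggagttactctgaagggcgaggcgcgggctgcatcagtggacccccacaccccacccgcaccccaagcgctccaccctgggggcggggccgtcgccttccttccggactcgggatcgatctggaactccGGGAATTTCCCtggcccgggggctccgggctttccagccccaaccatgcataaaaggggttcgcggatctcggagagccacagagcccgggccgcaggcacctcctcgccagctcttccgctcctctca
In IFI27 the interferon motif starts 108 and 95 bases upstream of the start site, in IFI44L 164 and 73 bases, in SAMD9 136 bases, and in OAS3 143 and 12 bases. The NF-kappaB motif starts 86 bases upstream in LTB, 99 bases in IL32, and 79 and 78 bases in CXCL1.

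Windows were found for 54 of the 72 measured interferon-induced genes, and 32 of them (59.3%) held the interferon motif, against 2.67% of the windows of measured protein-coding genes and 3.65% of all windows. Both lists hold genes known for these motifs, so that this share describes the lists and not the treatment. Within the list the motif was in 26 of 42 windows of members called higher and in 6 of 12 windows of members called neither. For NF-kappaB, 16 of 38 windows (42.1%) held the motif, against 1.65% of measured protein-coding genes, with 10 of 22 windows of members called higher and 6 of 16 windows of the others. The wider form GGGNNNTTCC was in 47.4% of the list and in 7.68% of measured protein-coding genes. A match is a description of the letters in the window only. The windows of MHC class I and peptide-loading genes held the interferon motif in 9 of 17 cases. In the cholesterol synthesis list, 15 of 18 windows held CCAAT, against 36.5% of measured protein-coding genes. Among Nodal and Activin genes, TGTNNATT, a form of the FOXH1 motif, was in 3 of 20 windows. Its share was 5.10% of measured protein-coding genes and 11.1% of all windows. The motif was in 3 of 9 windows of members called higher and in 0 of 10 called neither, counts too small to link it to the rises.

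In crotonate-treated hEPS cells, 52 of 72 measured interferon-induced genes were called higher and 0 lower, with a median change of 1.59 beside -0.09 over all genes. Of the 63 members that already had 1 FPKM in untreated cells, 49 were called higher. The antiviral enzymes of the oligoadenylate synthetase family rose together, with OASL going from 5.19 to 40.0 FPKM, OAS3 from 17.1 to 114 FPKM and OAS2 from 7.7 to 50.9 FPKM. IFI44L rose from 1.78 to 33.7 FPKM and SAMD9, a restriction factor of poxviruses, from 0.998 to 14.3 FPKM. The most abundant members rose as well. ISG15, a ubiquitin-like protein, rose from 400.1 to 1457 FPKM, IFITM3 and IFITM1, which block viral entry, from 542 to 1304 FPKM and from 143 to 512 FPKM, and IFI6 from 170.2 to 756 FPKM. The dynamin-like GTPase MX1 rose from 28.7 to 129 FPKM and the RNA-activated kinase gene EIF2AK2 from 49.2 to 151 FPKM. BST2, which tethers budding virions, was not called at 257 and 344 FPKM, nor was IFITM2 at 204 and 362 FPKM.

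Of 3 measured interferon ligands 2 were called higher, both of type III, with IFNL1 rising from 2.63 to 11 FPKM and IFNL2 from 0.736 to 4.39 FPKM, while 0 of 6 receptors were called. As close paralogs, IFNL1, IFNL2 and IFNL3 may share reads. The 5 measured APOBEC3 genes, whose products deaminate cytidines in viral and retroelement DNA, were all called higher. They were APOBEC3D (1.14 to 11.7 FPKM), APOBEC3G (1.18 to 6.09 FPKM), APOBEC3B (1.12 to 5.43 FPKM), APOBEC3F (1.91 to 7.49 FPKM) and APOBEC3C (10.2 to 23.1 FPKM), and as close paralogs in 1 cluster they may share reads.

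Antigen presentation genes rose in part. Of 21 measured genes of MHC class I and peptide loading, 11 were called higher and 0 lower, with a median change of 1.03. HLA-B rose from 39.4 to 221 FPKM, HLA-C from 162 to 454 FPKM and the shared light chain gene B2M from 76.2 to 223 FPKM. TAP1, which carries peptides into the endoplasmic reticulum, rose from 6.63 to 28.3 FPKM, the immunoproteasome subunits PSMB9 and PSMB8 from 1.66 to 8.1 FPKM and from 3.62 to 13 FPKM, and HLA-F from 1.86 to 9.17 FPKM. The endoplasmic reticulum chaperones of the same list, CALR at 595 and 771 FPKM and CANX at 437 and 484 FPKM, were not called. HLA genes resemble each other closely and vary between cell lines, so that their reads may be split between copies. Of 10 measured MHC class II genes, 5 were called higher, among them the invariant chain CD74 (4.37 to 27.4 FPKM) and HLA-DQB1 (24.1 to 96.3 FPKM).

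NF-kappaB target genes were called higher in 27 of 49 cases and lower in 0, with a median change of 1.29. Of the 36 members with at least 1 FPKM in untreated cells, 16 were called higher. The chemokine CCL2, which attracts monocytes, rose from 9.89 to 136 FPKM, TNFSF9, a ligand of the TNF family, from 1.02 to 23.4 FPKM, and the stress-induced survival gene IER3 from 49 to 409 FPKM. Low members also rose, such as LTB (0.457 to 10.8 FPKM), TNF (0.307 to 8.22 FPKM), CXCL1 (0.104 to 5.66 FPKM) and IL6 (0.209 to 1.42 FPKM), and rest on few reads in untreated cells. Of 13 measured feedback and subunit genes of the pathway 5 were called higher and 8 neither. The inhibitor NFKBIA rose from 38.8 to 114 FPKM, TNFAIP3 from 6.09 to 28.1 FPKM, and the subunit genes NFKB2 (17.8 to 44.3 FPKM) and RELB (6.13 to 16.8 FPKM) were called higher, whereas RELA stood at 24.6 and 22.7 FPKM and NFKB1 at 9.76 and 12.1 FPKM without a call. Outside the naming rule, TNF, LTB, CXCL1, IL6, TNFAIP3 and the subunit genes were picked after their values were seen. Of 22 death receptor and caspase genes, 6 were called higher and 0 lower. They comprised CFLAR and its neighbours on chromosome 2, CASP8 (2.24 to 11.9 FPKM) and CASP10 (0.418 to 4.14 FPKM), and the receptor genes TNFRSF10C (4.02 to 11.8 FPKM), TNFRSF21 (16.5 to 43.5 FPKM) and TNFRSF10A (2.63 to 7.47 FPKM).

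**Figure D2:**
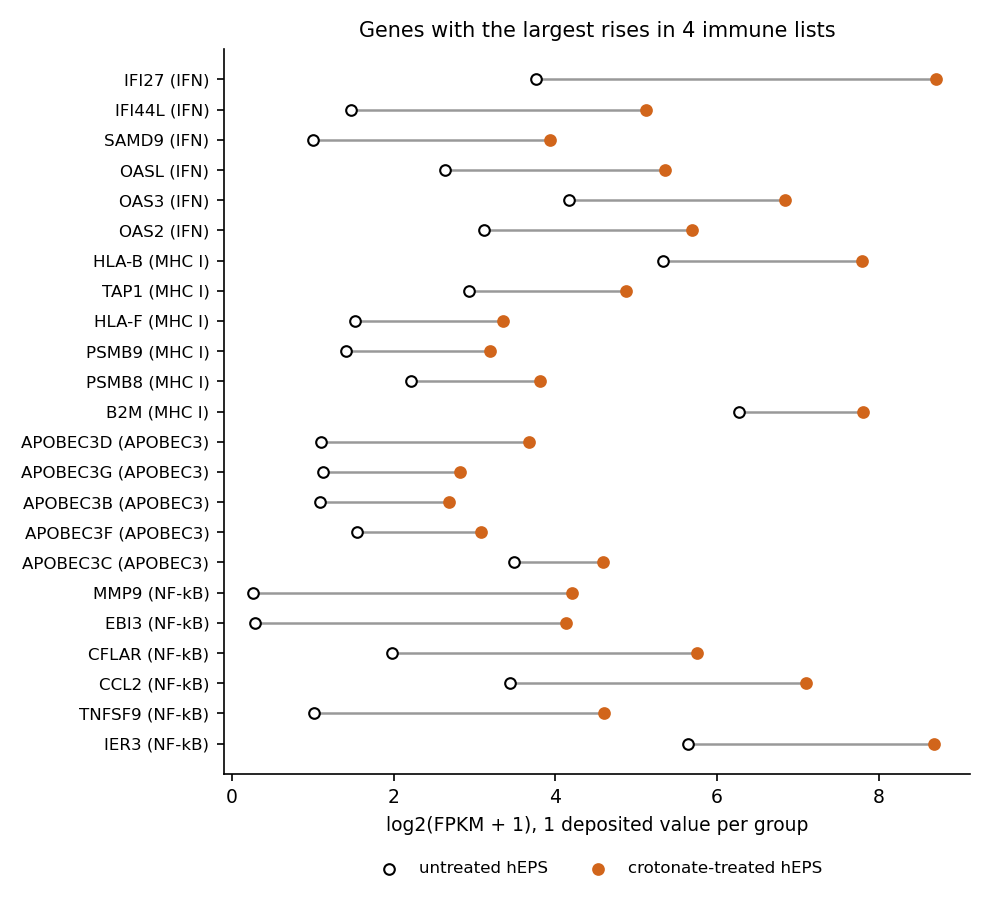
Levels of genes called higher in 4 immune lists, up to 6 per list by size of change, in untreated (open circles) and crotonate-treated (filled circles) hEPS cells as log2(FPKM + 1), 1 deposited value per group. Each filled circle lies to the right of its open circle, by 4.94 for IFI27 and by 3.95 for MMP9.

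Leukocytes also express many of these genes, and their markers were read in the same columns. PTPRC, which encodes the pan-leukocyte protein CD45, stood at 0.0205 and 0 FPKM, CD53 at 0.184 and 0.182 FPKM and TYROBP at 0 and 0.0707 FPKM, that is, at or near 0 in both columns. LAPTM5 rose from 0.116 to 2.05 FPKM and SPI1 stood at 0.202 and 1.03 FPKM. Of 26 measured genes of the leukocyte list, 16 were called higher and 0 lower, and the summed level of the list went from 87.7 to 244 FPKM. Those with the largest change were the receptor gene CD300E (0.152 to 5.91 FPKM), the chemokine receptor CCR7 (0.904 to 9.77 FPKM), the kinase subunit PIK3R5 (2.93 to 17.7 FPKM), the GTPase RAC2 (4.42 to 23.5 FPKM), IL2RB (0.77 to 6.53 FPKM) and PIK3CD (2.08 to 10.8 FPKM). With no filter on low values the share called higher in this list was 33.3% in place of 61.5%.

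Genes of Nodal and Activin signalling were called higher in 17 of 29 cases and lower in 1, with a median change of 1.19. The ligand NODAL rose from 16.8 to 54.8 FPKM and its co-receptor TDGF1 from 56.5 to 130.3 FPKM. The feedback genes LEFTY2, LEFTY1 and CER1 had the largest changes of the list, as given above, and SMAD7, an intracellular inhibitor, rose from 14.3 to 55.9 FPKM. The intracellular transducers SMAD2, SMAD3 and SMAD4 and the DNA-binding partner FOXH1 had no call. FST, an extracellular trap of Activin, fell from 351 to 158 FPKM. Of the endoderm and mesendoderm factors on this list, GATA6 rose from 9.72 to 85.3 FPKM, SOX17 from 29.2 to 191 FPKM, GATA4 from 20.9 to 97.8 FPKM, HHEX from 0.52 to 13.5 FPKM, LHX1 from 0.748 to 9.13 FPKM, MIXL1 from 60.6 to 344 FPKM and EOMES from 28.2 to 111 FPKM. T, the gene for Brachyury (TBXT), stood at 7.19 and 14.6 FPKM without a call. In the list of YAP, SRF and TGF-beta targets, 10 of 45 were called higher and 2 lower, with a median of 0.28. They included the ligand TGFB1 (20.7 to 158 FPKM), ANKRD1 (7.73 to 43.6 FPKM), PMEPA1 (8.89 to 48.7 FPKM) and TAGLN2 (146 to 722 FPKM). CTGF, a usual readout of YAP, stood at 102 and 64.9 FPKM, and TPM2 fell from 240.0 to 117 FPKM.

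Of 39 immediate early genes, 11 were called higher and 5 lower. KLF2 rose from 6.61 to 37 FPKM, CSRNP1 from 14.8 to 61.6 FPKM, ATF3 from 112 to 363 FPKM and FOSL1, a partner of JUN in AP-1, from 4.16 to 19.1 FPKM. EGR2 fell from 14.4 to 2.04 FPKM, EGR3 from 52.8 to 14.9 FPKM and NPAS4, a factor induced by neuronal activity, from 10.1 to 1.17 FPKM, besides EGR4. EGR1 at 491 and 358 FPKM and FOS at 1451 and 1045 FPKM, the most abundant members in untreated cells, had no call.

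Genes of epithelia were called higher in several lists. The simple keratins KRT8 and KRT18, which pair into filaments, rose from 412 to 1279 FPKM and from 147 to 376 FPKM, and KRT17 from 2.39 to 11.2 FPKM, while KRT19 stood at 204 and 362 FPKM and KRT7 fell from 2.52 to 0.322 FPKM. Of 12 measured claudins, the pore- and seal-forming proteins of tight junctions, 6 were called higher and 0 lower, with a median of 1.05. CLDN7 rose from 5.2 to 30.3 FPKM, CLDN4 from 1.17 to 6.8 FPKM, CLDN11 from 9.52 to 34.5 FPKM, CLDN1 from 1.07 to 4.11 FPKM, CLDN3 from 6.95 to 16.2 FPKM and CLDN23 from 1.97 to 5.4 FPKM, while CLDN6, the most abundant claudin here, stood at 399.6 and 372 FPKM. Of 26 barrier and hemidesmosome genes, 15 were called higher and 1 lower. Of the 21 members of this list with at least 1 FPKM in untreated cells, 10 were called higher. COL7A1, which forms the anchoring fibrils under epithelia, rose from 2.35 to 36.2 FPKM, SFN from 1.26 to 10.9 FPKM, the transcription factor KLF5 from 2.12 to 14.3 FPKM, the laminin receptor subunit ITGA3 from 10.4 to 44.4 FPKM, EPPK1 from 2.8 to 12.7 FPKM and the epithelial factor ELF3 from 1.93 to 8.82 FPKM, and the desmoplakin gene DSP from 26.6 to 67.4 FPKM. TFAP2A fell from 2.67 to 0.341 FPKM. The basal epidermal markers KRT5 at 0.0298 and 0.157 FPKM, KRT14 at 0.0687 and 0.113 FPKM and TP63 at 0.0117 and 0 FPKM stayed near 0.

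The calcium- and sugar-binding proteins of the S100, annexin and galectin families were called higher in 16 of 26 cases and lower in 0, with a median of 1.19. Of the 18 members with at least 1 FPKM in untreated cells, 10 were called higher, with a median of 1.06. With no filter on low values 16 of 34 members were called higher. LGALS1, or galectin-1, rose from 74.2 to 539 FPKM and LGALS12 from 2.3 to 25.3 FPKM. S100A11 rose from 220.4 to 608 FPKM, S100A10 from 159.8 to 391 FPKM and its annexin partner ANXA2 from 264 to 565 FPKM. ANXA1 rose from 6.11 to 32.4 FPKM and S100A4 from 12.9 to 45.9 FPKM, whereas ANXA5 at 169.6 and 259 FPKM and ANXA6 at 129 and 215 FPKM were not called.

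Endothelial genes had a median change of 1.65, and 16 of 21 were called higher and 0 lower. The guidance receptor PLXND1 rose from 13.1 to 89.4 FPKM, FGD5 from 3.18 to 20.5 FPKM, the adhesion molecule MCAM from 7.79 to 39.9 FPKM, the vascular factor SOX18 from 0.133 to 5.53 FPKM, ECSCR from 0.617 to 6.62 FPKM and ACVRL1, a receptor of BMP9 and BMP10 in vessels, from 0.168 to 4.03 FPKM. VWF rose from 0.691 to 5.12 FPKM. The defining markers CDH5 and TIE1 stood at 0.292 and 0.698 FPKM and at 0.0924 and 0.784 FPKM, below the filter, and KDR at 6.15 and 11.5 FPKM had no call. Of the 13 members with at least 1 FPKM in untreated cells, 8 were called higher, and with no filter the share called higher in the list was 44.4% in place of 76.2%. More cells of a type and more RNA per cell cannot be told apart in such bulk samples.

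Genes of fibroblast and feeder type were called higher in 9 of 23 cases and lower in 1, and the matrix genes among them in 7 of 13 cases and in 0. Besides COL5A2, the collagen gene COL1A1 rose from 34.6 to 244 FPKM, COL6A2 from 79.6 to 274 FPKM, COL6A1 from 74.9 to 222 FPKM and COL6A3 from 0.327 to 3.06 FPKM, and COL1A2 rose from 22.9 to 66.7 FPKM. Some other genes of fibroblasts stayed low, with COL3A1 at 2.7 and 1.39 FPKM and LUM at 0.0854 and 0.275 FPKM. DCN stood at 0.0248 and 0 FPKM and POSTN at 0.168 and 1.15 FPKM. Others were present in both columns. The markers THY1 at 41.95 and 55.6 FPKM, PDGFRB at 8.001 and 14.1 FPKM and PDGFRA at 5.39 and 6.15 FPKM had no call. Fibronectin (FN1) stood at 333 and 543 FPKM and vimentin (VIM) at 245 and 219 FPKM. The feeders were mouse cells, and the table holds human gene symbols. The part of residual feeder RNA in these values was not tested. ZEB2, a repressor of epithelial genes, fell from 33.3 to 12.6 FPKM. Of 23 matrix proteases and inhibitors, 9 were called higher and 0 lower, among them ADAMTS4 (1.0 to 12.7 FPKM), ADAM19 (13.6 to 77.1 FPKM), TFPI2 (3.61 to 20.9 FPKM), the urokinase gene PLAU (2.21 to 11.1 FPKM) and MMP14, a membrane-bound collagenase (72 to 181 FPKM).

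**Figure D3:**
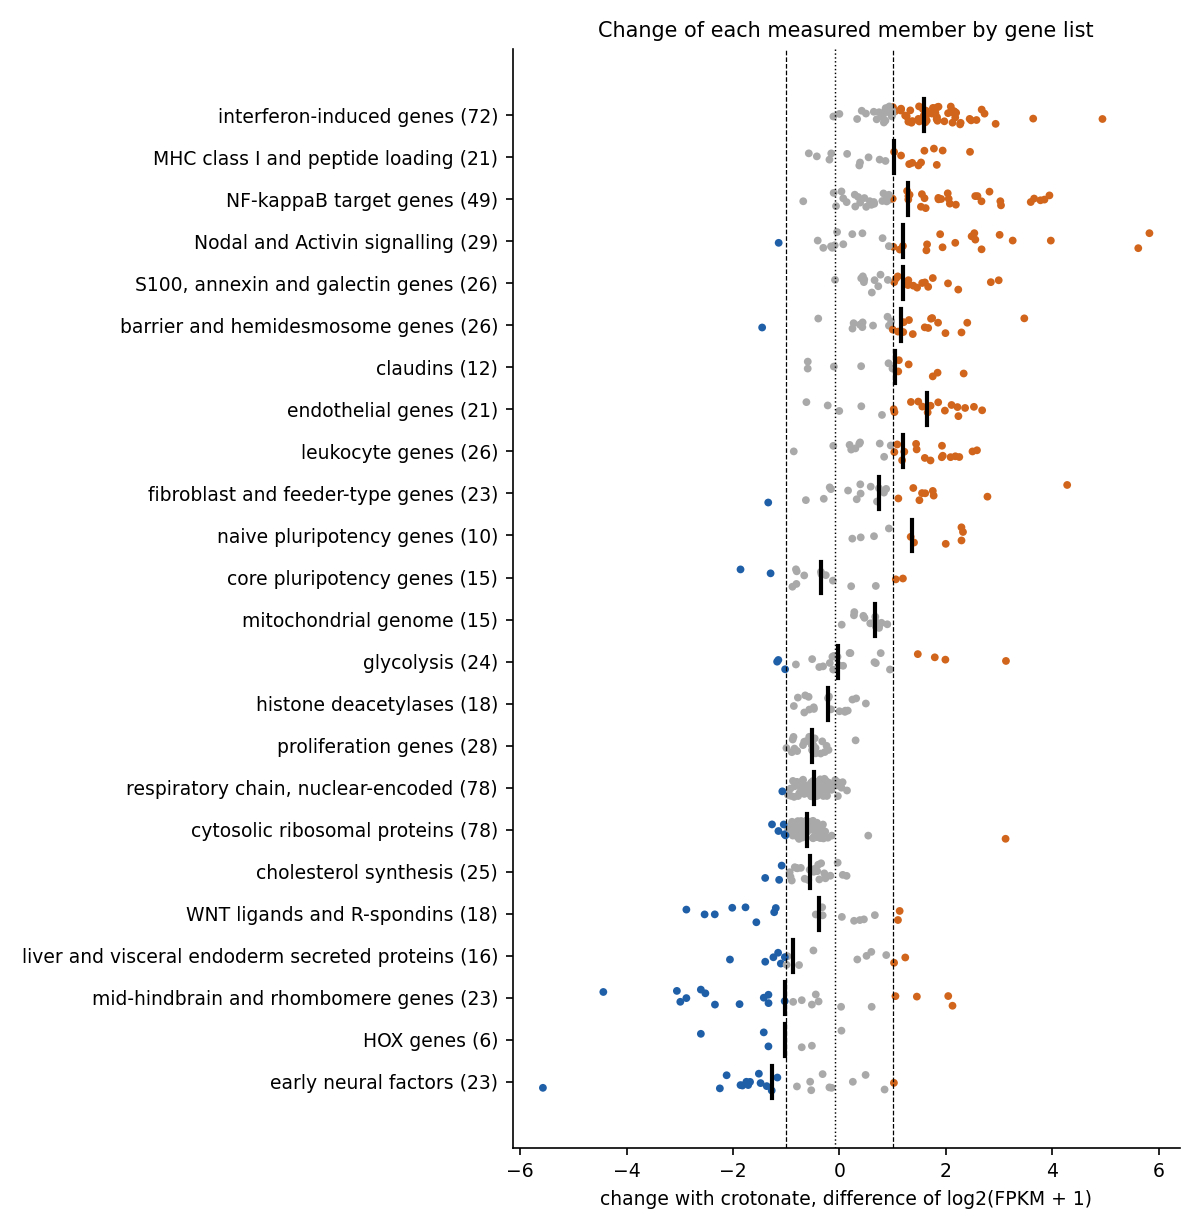
Change of each measured member with crotonate, as a difference of log2(FPKM + 1), in 24 gene lists with the number of measured members in brackets. Orange points were called higher, blue points lower and grey points neither, black bars are list medians, dashed lines mark a fold of 2 and the dotted line the median of all genes, -0.09. List medians run from 1.65 for endothelial genes to -1.27 for early neural factors.

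The early neural factors had the lowest median of these lists. Of 23 measured members, 13 were called lower and 1 higher, with a median of -1.27. Besides HES3, SOX2 fell from 234 to 63.8 FPKM, SOX21 from 12.5 to 1.85 FPKM, SOX1, a marker of the neural plate, from 3.59 to 0.055 FPKM, OTX1 from 3.28 to 0.211 FPKM and LMX1A, a factor of the roof plate and the midbrain floor, from 4.62 to 0.672 FPKM. Some members at high levels had no call, with OTX2 at 76.8 and 139 FPKM and ZIC2 at 93.3 and 81.8 FPKM, as had PAX6 at 6.44 and 9.46 FPKM. LHX2, picked after its value was seen, was the member called higher, at 0.44 and 1.93 FPKM.

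Of 23 measured mid-hindbrain and rhombomere genes, 12 were called lower and 4 higher, with a median of -1.03, or -2.11 over the 14 members left by a filter of 5 FPKM. WNT1, which marks the midbrain side of the isthmus, and FGF3 fell as given above. IRX2 fell from 65.9 to 10.7 FPKM together with its neighbour C5orf38, and HOXB1, a gene of the rhombomeres, from 13.6 to 1.4 FPKM. The rises were in FGF17 (23.1 to 104 FPKM), CYP26A1, which degrades retinoic acid (57.4 to 239.7 FPKM), FGF8 (12.2 to 35.1 FPKM) and PAX5 (4.38 to 10.1 FPKM), of which FGF8 and PAX5 were picked after their values were seen. All 6 measured HOX genes were at 13.6 FPKM or less, and 3 of them were called lower, HOXB1, HOXB2 (5.45 to 1.41 FPKM) and HOXA2 (2.35 to 0.328 FPKM). With no filter the median of 31 HOX genes was -0.006. Among neuronal and synaptic genes 6 were called higher and 7 lower of 32, so that the list had no common direction. STMN2, a tubulin-binding protein of neurons, rose from 27.9 to 254 FPKM and SYT4 from 2.17 to 18.6 FPKM, whereas MAP6 fell from 7.88 to 0.732 FPKM, NLGN3 from 18.1 to 2.83 FPKM, CBLN1 from 12.6 to 1.74 FPKM and CAMKV from 33.5 to 6.12 FPKM. Among 23 proneural and Notch genes, the target HES4 rose from 42.9 to 183 FPKM and the ligand JAG2 from 2.58 to 9.71 FPKM, while the ligand DLL1 fell from 7.15 to 1.25 FPKM.

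WNT ligands and R-spondins were called lower in 8 of 18 cases and higher in 2. Besides WNT1, WNT8B fell from 11.5 to 1.16 FPKM, WNT3A from 18.1 to 3.73 FPKM, WNT7B from 2.53 to 0.0391 FPKM, RSPO3, which enhances WNT signals at LGR receptors, from 24.7 to 4.06 FPKM, and RSPO2 from 3.63 to 0.569 FPKM. Of 21 WNT feedback targets and antagonists, 6 were called higher and 2 lower. The antagonist DKK4 rose from 3.19 to 33 FPKM, the DKK co-receptor KREMEN2 from 4.72 to 21.4 FPKM, NKD2 from 4.12 to 14.2 FPKM, LGR5 from 3.92 to 12.4 FPKM and DKK1 from 24.1 to 60.3 FPKM. SFRP1, which binds WNT ligands, fell from 168 to 53.4 FPKM and LEF1 from 21.1 to 6.94 FPKM, and the common target AXIN2 stood at 64.3 and 41.4 FPKM.

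**Figure D4:**
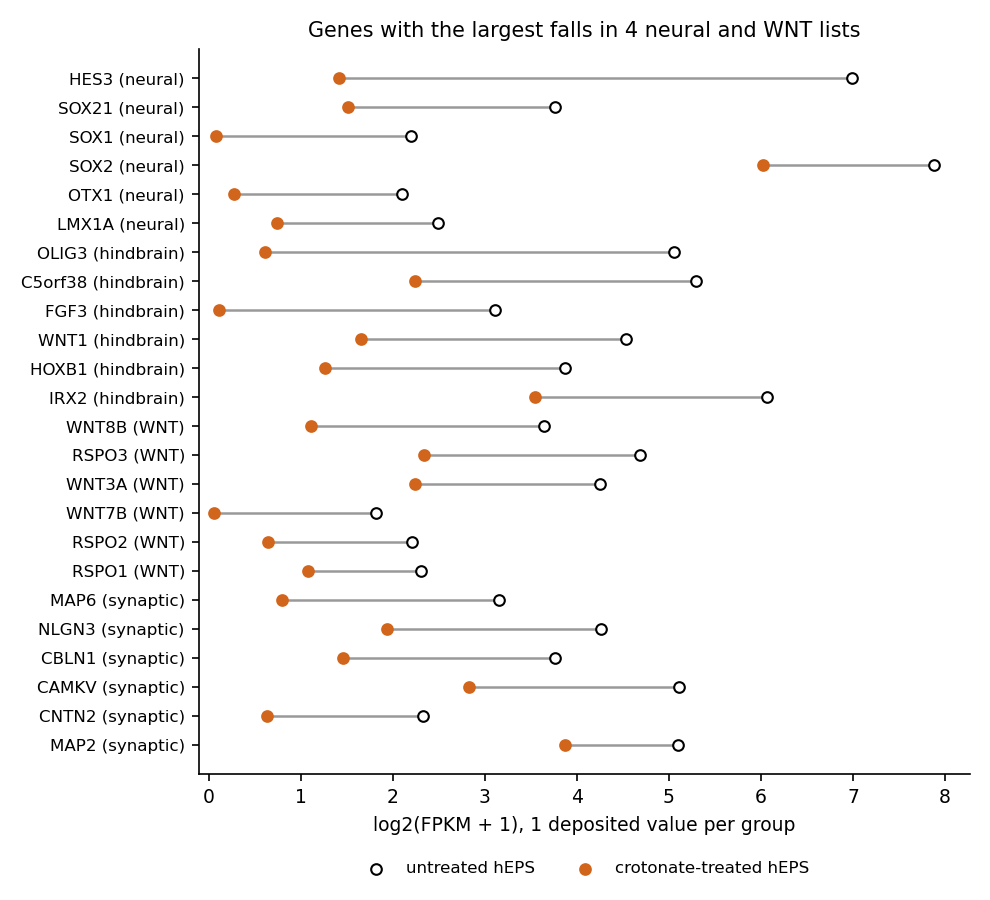
Levels of genes called lower in 4 neural and WNT lists, up to 6 per list by size of change, in untreated (open circles) and crotonate-treated (filled circles) hEPS cells as log2(FPKM + 1), 1 deposited value per group. Each filled circle lies to the left of its open circle, and HES3 shows the widest gap, from 126 to 1.67 FPKM.

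Of 16 measured secreted proteins of liver and visceral endoderm, 6 were called lower and 2 higher, with a median of -0.87. This direction rested on members at low levels, since with a filter of 5 FPKM the median of the 6 members left was 0.55, with 1 called higher and 1 lower, and with no filter it was -0.15. The summed level of the list went from 1002 to 1384 FPKM. APOA1 fell from 107 to 49.5 FPKM and TTR from 1.94 to 0.118 FPKM, HABP2 from 3.88 to 0.172 FPKM, FGB from 1.36 to 0 FPKM and APOB from 2.9 to 0.755 FPKM. APOA2 rose from 30.6 to 73.5 FPKM, whereas APOE at 729 and 1104 FPKM and AFP at 1.17 and 0.103 FPKM were not called, and ALB stood at 0.0358 and 0.0236 FPKM.

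Core pluripotency genes were called higher in 2 and lower in 2 of 15 cases, with a median of -0.35. Besides SOX2, PRDM14 fell from 29.2 to 11.3 FPKM, and besides TDGF1, DPPA2 rose from 0.0413 to 1.17 FPKM. Of 21 listed genes linked to naive pluripotency 10 were measured, of which 6 were called higher and 0 lower. KLF2 rose from 6.61 to 37 FPKM, KLF5 from 2.12 to 14.3 FPKM, FGF4 from 3.56 to 10.5 FPKM, CD70 from 0.217 to 4.96 FPKM, DNMT3L, a cofactor of DNA methylation, from 0.159 to 3.63 FPKM, and NLRP7 from 0.167 to 2.08 FPKM, and the last 3 were below 1 FPKM in untreated cells. ESRG, a transcript with a HERVH origin, stood at 134 and 124 FPKM. Of 8 measured HERVH-driven and endogenous retroviral genes, KLKB1 rose from 3.04 to 8.54 FPKM and ABHD12B from 0.324 to 2.89 FPKM, and SCGB3A2 fell from 36.5 to 14.7 FPKM. Among imprinted genes PHLDA2, a repressor of placental growth in the mouse, rose from 4.75 to 58.4 FPKM, DIO3 from 3.73 to 16.6 FPKM and IGF2 from 13.1 to 29.1 FPKM, and DLK1 fell from 54.2 to 15.9 FPKM.

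The enzymes that crotonate or histone acylation involve were measured with few calls. All 18 histone deacetylases were measured, none was called, and their median was -0.21. Over all measured genes 8.42% were called higher and 3.02% lower. Among 24 enzymes that make or use crotonyl-CoA, writers and readers of crotonylation, 3 were called higher and 0 lower. They included the peroxisomal oxidase ACOX3 (7.54 to 32.6 FPKM) and CDYL2 (3.46 to 10.5 FPKM), a paralog of the crotonyl-CoA hydratase CDYL. ECHS1, the mitochondrial enoyl-CoA hydratase, stood at 61.1 and 41.1 FPKM, and CDYL, GCDH, EP300 and CREBBP were not called. Of 22 fatty acid oxidation genes, CPT1A, the rate-limiting carnitine transferase, was called higher (10.1 to 23 FPKM). Of 7 measured genes known to respond to deacetylase inhibitors 2 were called higher and 5 neither, with a median of 0.33. DHRS2 rose from 2.0 to 38.8 FPKM and CDKN1A from 25.2 to 52.4 FPKM, and H1F0, at 133 and 198 FPKM, was not called.

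Genes of growth and metabolism had few calls and list medians further from 0. Their counts stand beside 8.42% of all measured genes called higher and 3.02% called lower. None of 28 proliferation genes was called, with a median of -0.51, and PCNA stood at 157 and 85.8 FPKM and MCM2, a subunit of the replicative helicase, at 126 and 67.8 FPKM. Of 6 measured genes of cyclin-dependent kinase inhibitors 3 were called higher, CDKN2B (1.68 to 11.7 FPKM), CDKN2A (1.49 to 7.67 FPKM) and CDKN1A. None of 8 measured cyclin genes was called. Of 78 cytosolic ribosomal protein genes 5 were called lower and 1 higher, with a median of -0.61. Of 78 nuclear-encoded respiratory chain genes 1 was called lower, with a median of -0.48, while the 15 genes of the mitochondrial genome, none of them called, had a median of 0.67. These medians stand beside -0.30 over all genes at 100 FPKM or more, and part of them moved with the scaling of the columns. With quantile normalization the median of the mitochondrial genome was 0.20, that of ribosomal proteins -0.33 with 2 called lower, and that of proliferation genes -0.42. Cholesterol synthesis genes were called lower in 3 of 25 cases, namely ACAT2 (59.1 to 21.9 FPKM), INSIG1 (60.0 to 26.8 FPKM) and HMGCS1 (178 to 83.4 FPKM), and higher in 0.

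Of 24 glycolysis genes, 4 were called higher and 3 lower. The lactate exporter SLC16A3 rose from 5.39 to 54.9 FPKM, the glucose transporter SLC2A3 from 234 to 932 FPKM, its close paralog SLC2A14 from 5.62 to 21.9 FPKM and PDK1, a kinase of pyruvate dehydrogenase, from 39.5 to 111 FPKM. LDHB fell from 1088 to 490.1 FPKM, PFKM from 84.9 to 41.3 FPKM and ALDOC from 12.7 to 5.08 FPKM, while GAPDH stood at 1302 and 913 FPKM and ENO1 at 1555 and 1775 FPKM. Among 34 genes of the ATF4 response, 5 were called higher and 0 lower, beside 8.42% and 3.02% of all measured genes. GDF15 rose from 27.3 to 154 FPKM, TRIB3 from 5.69 to 26.7 FPKM and the amino acid transporter SLC7A5 from 118 to 471 FPKM, whereas ASNS stood at 97.9 and 84.9 FPKM and PSAT1 at 186 and 111 FPKM. Of 28 p53 target genes 5 were called higher and 1 lower, and MDM2 stood at 35 and 67.8 FPKM. The small heat shock proteins HSPB8 and HSPB1 rose from 6.0 to 33.6 FPKM and from 239.8 to 499 FPKM, while HSP90AA1 stood at 981 and 588 FPKM and HSPE1 fell from 59.7 to 27.7 FPKM.

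Noncoding genes were measured less often than coding genes. Of 1465 genes annotated as noncoding, 269 (18.4%) reached 1 FPKM, against 68.5% of protein-coding genes, and 25 were called higher (9.29%) and 21 lower (7.81%). For long noncoding RNAs alone the counts were 21 and 21 of 231, against 1086 and 362 of 13049 for protein-coding genes. A further 774 measured genes carried clone names that matched no current annotation, of which 74 were called higher and 42 lower. Among these RP4-559A3.6 went from 0.167 to 18.9 FPKM and AL606500.1 was listed at 0 in untreated cells and at 8.97 FPKM with crotonate. The library was enriched with oligo(dT), so that small RNAs and transcripts without a poly(A) tail are poorly covered. Of 11 measured small RNA genes 3 were called higher, among them the snoRNA gene SNORD64 (3.32 to 13.1 FPKM) and RN7SL1, the RNA of the signal recognition particle (24.9 to 66.4 FPKM).

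The largest fall of a long noncoding RNA was in C5orf38 (chr5:2752131-2755397), from 38.2 to 3.71 FPKM, next to IRX2 (chr5:2745845-2751677). HOTAIRM1, a transcript of the HOXA cluster (chr7:27095647-27100265), fell from 11.5 to 1.39 FPKM. SOX2-OT, whose gene spans SOX2, fell from 6.49 to 1.1 FPKM alongside SOX2, and FEZF1-AS1 from 4.89 to 0.579 FPKM alongside FEZF1 (5.27 to 1.2 FPKM). MYCNOS, antisense to MYCN, fell from 3.18 to 0.538 FPKM, ZFHX4-AS1 from 2.73 to 0.417 FPKM and ADAMTS19-AS1 from 4.43 to 1.25 FPKM, and ANKRD10-IT1 from 23.3 to 9.41 FPKM. The largest rises were in CDR1 (0.791 to 8.09 FPKM), in HCP5, a transcript of the MHC class I region (1.43 to 8.25 FPKM), and in SMYD3-IT1, which was listed at 0 in untreated cells and at 2.5 FPKM with crotonate. HAS2-AS1 rose from 0.335 to 3.58 FPKM with its host HAS2, the hyaluronan synthase gene (23 to 74 FPKM), and TSPEAR-AS1 from 1.13 to 6.2 FPKM with TSPEAR (0.638 to 3.86 FPKM). The abundant noncoding RNAs ZFAS1 at 67.3 and 57.7 FPKM, FGD5-AS1 at 66.4 and 39.2 FPKM and C19orf48 at 93.7 and 62.2 FPKM had no call.

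**Figure D5:**
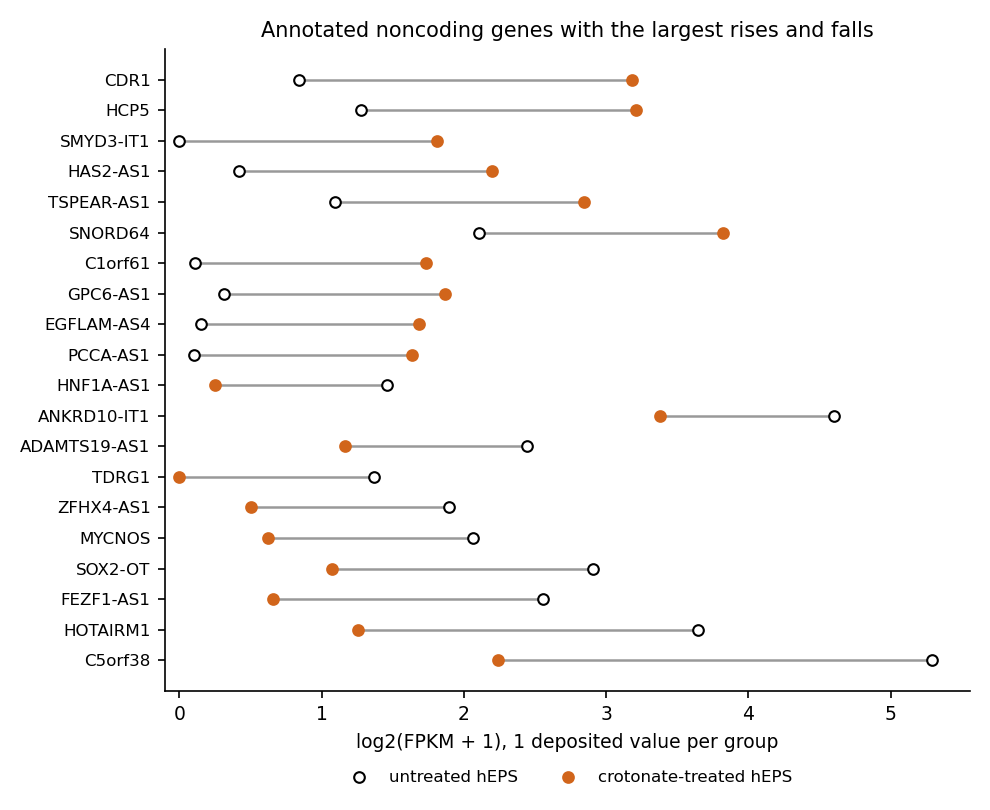
Levels of the 10 annotated noncoding genes with the largest rises and the 10 with the largest falls, in untreated (open circles) and crotonate-treated (filled circles) hEPS cells as log2(FPKM + 1), 1 deposited value per group. C5orf38 and HOTAIRM1 show the widest falls and CDR1 the widest rise, and most of the others lie below 10 FPKM in both columns.

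Antisense and intronic genes named after a host were compared with that host. Of 14 called higher whose host was measured, the host was called higher in 6 cases and lower in 0, and of 14 called lower it was called lower in 4 and higher in 2. Of 128 with no call, the host was called higher in 7 and lower in 2. The sources used here do not say whether counting used strand, so that reads of a gene and its antisense partner cannot be told apart. In 8 of the 14 pairs in each direction the host was not called, as for ZFHX4-AS1, whose host ZFHX4 stood at 8.22 and 7.8 FPKM, and for PCCA-AS1 (0.0728 to 2.11 FPKM), whose host PCCA stood at 32.3 and 24.7 FPKM.

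The same genes were read in primed hESCs of the line, treated in the same way in their own comparison, with levels taken from a table that was normalized separately. There, 13.9% of measured genes were called higher and 12.7% lower. Of 927 genes called higher in hEPS cells and measured in both tables, 361 (38.9%) were called higher, 174 (18.8%) lower and 392 neither in primed hESCs. Of 286 called lower in hEPS cells, 92 (32.2%) were called lower and 44 (15.4%) higher. The 361 shared genes were 23.9% of the primed genes called higher, and the 92 were 6.08% of those called lower. LEFTY2 was called higher in both, at 2.51 and 41.7 FPKM in untreated and crotonate-treated primed hESCs, whereas LEFTY1 was called lower there at 9.48 and 1.16 FPKM and CER1 was not called at 1.59 and 0.342 FPKM. IFI27 was called higher there at 0.527 and 5.38 FPKM and HES3 lower at 21.2 and 0.197 FPKM, and OLIG3 was listed at 0 in both primed columns. The glucose transporter SLC2A3, called higher in hEPS cells, was called lower in primed hESCs at 319 and 126 FPKM.

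By list, interferon-induced genes had 19 members called higher and 9 lower of 65 in primed hESCs, with a median of 0.10 beside 1.59 in hEPS cells, and NF-kappaB targets a median of 0.44 beside 1.29. Nodal and Activin genes had medians of 1.06 and 1.19 in primed and hEPS cells, and endothelial genes of 1.93 and 1.65. Fibroblast and feeder-type genes had a median of 4.12 in primed hESCs and of 0.74 in hEPS cells. Core pluripotency genes had 13 of 16 members called lower in primed hESCs, with a median of -3.36, beside 2 of 15 in hEPS cells. POU5F1 was at 827 and 0.42 FPKM in the primed columns. The difference between the cell states was not tested for any of these lists.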

How the data were processed

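Per the labels and the study's methods, oligo(dT)-enriched mRNA was sequenced as paired-end reads on a HiSeq instrument. The submitters' processing notes name TopHat 1.3.2, Cufflinks 1.1.0, HTSeq 0.6.0, StringTie 1.3.0, TMM normalization in edgeR and hg38. The authors deposited FPKM values with 1 column per group. How 2 samples became 1 column, the depth and the annotation release are not stated in the sources used here. RNA extraction is by TRIzol in the labels and by RNeasy in the methods.

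Changes were differences of log2(FPKM + 1) over genes with at least 1 FPKM in either column, called at a fold of 2. The planned test with limma needs a value per sample and was not run. The 28 symbols turned into dates were left out. Of 26731 symbols, 19170 matched RefSeq and GENCODE 44 by symbol and 1356 by synonym, which gave types and coordinates. Promoter windows came from RefSeq on GRCh38.p14. Calls in each direction were counted in 61 lists. The members and lists were chosen with earlier results of these data known, so no list is independent support for its direction. Named were the 10 largest rises and falls among genes without a clone name, and up to 6 called members per list by size of change. The rule also named the 10 largest rises and falls and the 10 most abundant of annotated noncoding genes. It further took list members at 50 FPKM or more, cell type markers, and a fixed set of lineage genes with GAPDH and ENO1. Genes printed outside this rule, among them C1QL2 and FTL and some list members, were chosen after their values were seen. The calling rule was tested on simulated data. Alternatives were a pseudocount of 0.1, no filter, a filter of 5 FPKM, quantile normalization, median-centred changes, a ratio of FPKM above 1.5 and, chosen after seeing the data, equal sums without mitochondrial genes. The authors' endoderm column was not used. A few list members are not reported here. Scripts ran in Python 3.11.15 with matplotlib 3.10.9, pandas 2.3.3, numpy 2.4.6 and scipy 1.17.1.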

Additional observations from a re-analysis of the deposited data

Results flagged for a closer look

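For 4 lists the median change with crotonate reached a fold of 2 in opposite directions in hEPS cells and in primed hESCs. Other lists had medians of opposite sign with at least 1 of them under that fold. Claudins had a median of 1.05 in hEPS cells and of -1.27 in primed hESCs, and barrier and hemidesmosome genes of 1.15 and -1.02. Mid-hindbrain and rhombomere genes had a median of -1.03 in hEPS cells and of 1.60 in primed hESCs, and HOX genes of -1.02 and 3.85. The isthmus part of the mid-hindbrain list was lower in both, with medians of -1.10 in hEPS cells and -1.51 over 3 members in primed hESCs. Only the rhombomere part differed in sign, with medians of -1.03 in hEPS cells and 2.21 over 7 members in primed hESCs. The HOX median in hEPS cells was -0.006 with no filter on low values, and the mid-hindbrain median -2.11 with a filter of 5 FPKM. With 1 value per group these differences were not tested, and the members measured differ between the tables, 6 HOX genes in hEPS cells and 33 in primed hESCs. Measured mid-hindbrain and rhombomere genes numbered 23 in hEPS cells and 10 in primed hESCs.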

How the results depend on the processing

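No paired analysis was possible because each group has 1 column, and for the same reason no replicate could be left out. The counts of 1193 genes called higher and 428 lower became 2841 and 2566 with a ratio of FPKM above 1.5, and 787 were lower with a pseudocount of 0.1. With median centring 1396 were higher and 314 lower, and with equal sums without mitochondrial genes 1453 and 306. Both scalings could only raise a change, so that all 1193 genes called higher had to stay called. Of the 428 called lower, 314 and 306 stayed called, and quantile normalization kept 1073 higher and 388 lower. Noncoding genes called higher and lower numbered 48 and 38 with a pseudocount of 0.1, 8 and 10 with a filter of 5 FPKM, and 69 and 74 with the ratio. Of the 56 lists with at least 5 measured members, 12 had more than 50% of members called in 1 direction, and 3 with no filter. The percent of genes called higher in hEPS cells that were called higher in primed hESCs was 43.1 with a pseudocount of 0.1, 34.1 with no filter, 44.4 with a filter of 5 FPKM and 45.8 with the ratio. For genes called lower it was 26.7 with no filter, 39.7 with the ratio and 38.7 with equal sums. Of 336 list shares under 6 alternatives, 51 moved by over 1.5 times, 16 of them with no filter, which adds members below 1 FPKM. In 6 cases the more frequent direction of a list changed, namely in the neuronal list, with 21.9% called lower under median centring and equal sums, antisense-named genes, with 14.7%, 5.26% and 7.27% called higher with a pseudocount of 0.1, a filter of 5 FPKM and quantile normalization, and clone-named genes, with 8.04% higher under quantile normalization. The cause of these moves was not tested. Read totals are not given, so the depth limits the low values by an unknown amount. Only the ratio of the library sizes used for scaling, 0.758 for crotonate over untreated, could be read from the steps of low values.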

Other observations

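Among the solute carriers, 26 of 234 measured members were called higher and 4 lower, with a median change of 0.12. Over all measured genes the shares were 8.42% higher and 3.02% lower. Besides SLC16A3, the iron exporter SLC40A1 rose from 3.38 to 24.6 FPKM, the riboflavin transporter SLC52A3 from 8.17 to 48.5 FPKM and the phosphate transporter SLC34A2 from 0.283 to 4.97 FPKM. Of 429 measured ZNF genes, a family of zinc finger factors of which many repress transposable elements, 7 were called higher and 4 lower. Of 48 measured histone genes 6 were called higher and 5 lower. The replication-dependent gene HIST1H4C fell from 144 to 39.4 FPKM, and HIST1H2BK rose from 20.9 to 52.5 FPKM. Most histone messages of this class lack a poly(A) tail and are poorly covered by oligo(dT) libraries.

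Germline genes were mostly silent, with 8 of 96 listed members measured. PRDM1, a regulator of germ cell and endoderm fates, rose from 7.17 to 52.3 FPKM and TDRD7 from 3.64 to 24.4 FPKM, whereas DAZL, an RNA-binding protein of germ cells, fell from 2.83 to 0.0657 FPKM. By chromosome, the share of genes called higher ran from 4.33% on chromosome 13 (10 of 231 genes) to 15.7% on chromosome 21 (20 of 127 genes). Both ends rest on small sets, beside 8.42% over all measured genes, and chromosome medians lay between -0.19 and 0.03. Of complement genes, C3 rose from 2.63 to 16.5 FPKM.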
